A study of Schizosaccharomyces pombe with 97 samples.

Results

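The protein-synthesis factors of the fission yeast Schizosaccharomyces pombe were followed from growth into nitrogen-starvation quiescence (G0), in the wild type and in 6 mutant strains. The genes were chosen by symbol alone, as those beginning with tif (initiation factors), tef (elongation factors of the eEF1 and eEF3 kind) or eft (eEF2) followed by a digit. This selected 30 of the 7014 genes in the count table, 27 of them protein-coding and 3 antisense RNAs named after a matched gene. The coding members comprise 5 genes for eIF1A and the subunits of eIF2, 3 for eIF2B, 5 for eIF3, 3 for eIF4E and eIF4G, 4 for eIF5, eIF5A and eIF6, 5 for eEF1A, eEF1B and eEF3, and 2 for eEF2. All 27 coding members and 2 of the 3 antisense RNAs were among the 6608 genes that passed the filter on low counts, which asked for more than 1 CPM (reads scaled to the size of the library) in at least 3 libraries. The exception, tef103-antisense-1, had at most 3 reads in any library and was not tested.

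Translation starts when eIF2 brings the initiator tRNA to the small ribosomal subunit together with GTP, on a scaffold of eIF3 and with eIF1A in the decoding site. The cap-binding protein eIF4E and the adaptor eIF4G recruit the mRNA, eIF5 triggers GTP hydrolysis, and eIF2B reloads eIF2 with GTP, the step at which the integrated stress response acts. During elongation eEF1A delivers aminoacyl-tRNAs, eEF1B reloads it, eEF2 moves the ribosome along the mRNA and eEF3 is an ATPase that fungi need in addition. These genes are among the most highly expressed genes of a growing yeast, and lowered synthesis of the translation machinery is a known feature of yeast cells that run out of nutrients.

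RNA was sequenced from cultures growing in minimal medium (T0) and from cultures kept in that medium without nitrogen for 1 day, called T1D, for 1 week, called T1W, or for 2 weeks, called T2W. Each strain had 3 cultures (A, B and C) at each of these times, except that ies2∆ was not sampled at T2W, which makes 81 libraries in 27 groups. Per the study's methods, the T0 sample was taken from a culture whose remainder was then starved, so the times are not separate cultures. Whether a letter names the same culture at each time is not given in the sources used here, and the main tests do not pair them. The wild type was smt0, a heterothallic strain whose mating type does not switch, and the mutants were its crosses with null alleles (marked with kanMX4) from a deletion library, so that all strains share the smt0 allele. hht2∆ lacks a histone H3 gene, pht1∆ the gene for the histone variant H2A.Z, iec1∆ and ies2∆ genes for subunits of the chromatin remodeller Ino80C, arp42∆ that for a putative subunit of it, and asp1∆ an inositol kinase gene. The ies2∆ libraries were a second batch without a wild type, and whatever sets ies2∆ apart from smt0 below cannot be told apart from a difference of batch.

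Reads on genes numbered 1980570 to 18992894 per library and reads on the 92 spiked ERCC transcripts 5678 to 3003773. The amount of ERCC RNA added followed the count of cells in the growing culture. The deleted gene was near absent only in some strains. On the relative scale defined below, the count of the deleted gene was 3.37 to 8.92% of the smt0 mean in the libraries labelled asp1∆ and 0.197 to 36.6% in those labelled hht2∆, where replicate A stood at 15.1% or more at every time point and replicate C at 14.6% at T2W. It was 38.2 to 118% for pht1∆, 52.6 to 145% for iec1∆, 9.63 to 96.4% for arp42∆ and 0.923 to 217% for ies2∆, with the highest value in T0 replicate C. How much of each gene the deletions remove is not given in the sources used here. Why the count differed between cultures of 1 strain was not tested. A strain name below thus stands for the libraries so labelled.

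Values are given on 2 scales. On the ERCC scale the reads of a gene were divided by the ERCC reads of the library, as the study did, which follows the amount of a transcript per cell added. On the relative scale they were divided by the gene reads of the library, with trimmed-mean (TMM) factors, which follows the level of a transcript relative to the other transcripts and is given as relative CPM. Differences between groups are log2 fold changes. In such bulk samples fewer intact cells and less RNA per cell cannot be told apart. Tests were edgeR's quasi-likelihood test over all 6608 genes with Benjamini-Hochberg adjustment within each comparison and a threshold of 0.05, and "rose" and "fell" are used only of what passed it. SE is the standard error of a log2 fold change and SD the spread over the 3 cultures of a group.

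Per ERCC read, nearly all transcripts of smt0 became scarce in quiescence, and the translation factors fell further than the median gene. For tif33 (eIF3c, chrI:2580100-2583046), 0.957, 0.875 and 0.924 reads per ERCC read were counted in cultures A, B and C at T0. The values were 0.347, 0.156 and 0.0944 at T1D, 0.0210, 0.0122 and 0.00270 at T1W, then 0.0139, 0.0215 and 0.00383 at T2W. The T1D cultures lay below all T0 cultures and above all later ones, and the cultures of 1 time point differed several-fold among themselves.

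On the ERCC scale 23 of the 29 tested members fell at T1D, against 21.4% of all genes, with a median log2 change of -2.27 against -1.05. All 29 fell at T1W, as did 97.3% of all genes, and all 29 at T2W, as did 96.1%, with medians of -6.43 and -6.13 against -5.29 and -4.94. No member rose at any of these times. The count at T1D rested on the spread of the cultures: it was 5 without T1D replicate C and 10 without T1D replicate B. The members not past the threshold at T1D were tef103, tif225, tif471, tif1102 and the antisense RNAs of tif211 and tef102.

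Relative to the other transcripts, translation factor mRNAs took a smaller share of the reads in quiescence. At T0 the 27 coding members held 1.70 ± 0.16% (SD, n = 3) of all gene reads of smt0, and 0.890 ± 0.127, 1.06 ± 0.14 and 0.918 ± 0.015% at the 3 later times. The lowest T0 culture, at 1.57%, lay above the highest later one, at 1.20%. The 131 ribosomal protein genes, given for comparison, went from 8.77 ± 0.79% to 3.46 ± 0.80, 2.51 ± 0.36 and 2.16 ± 0.35%.

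**Figure D1:**
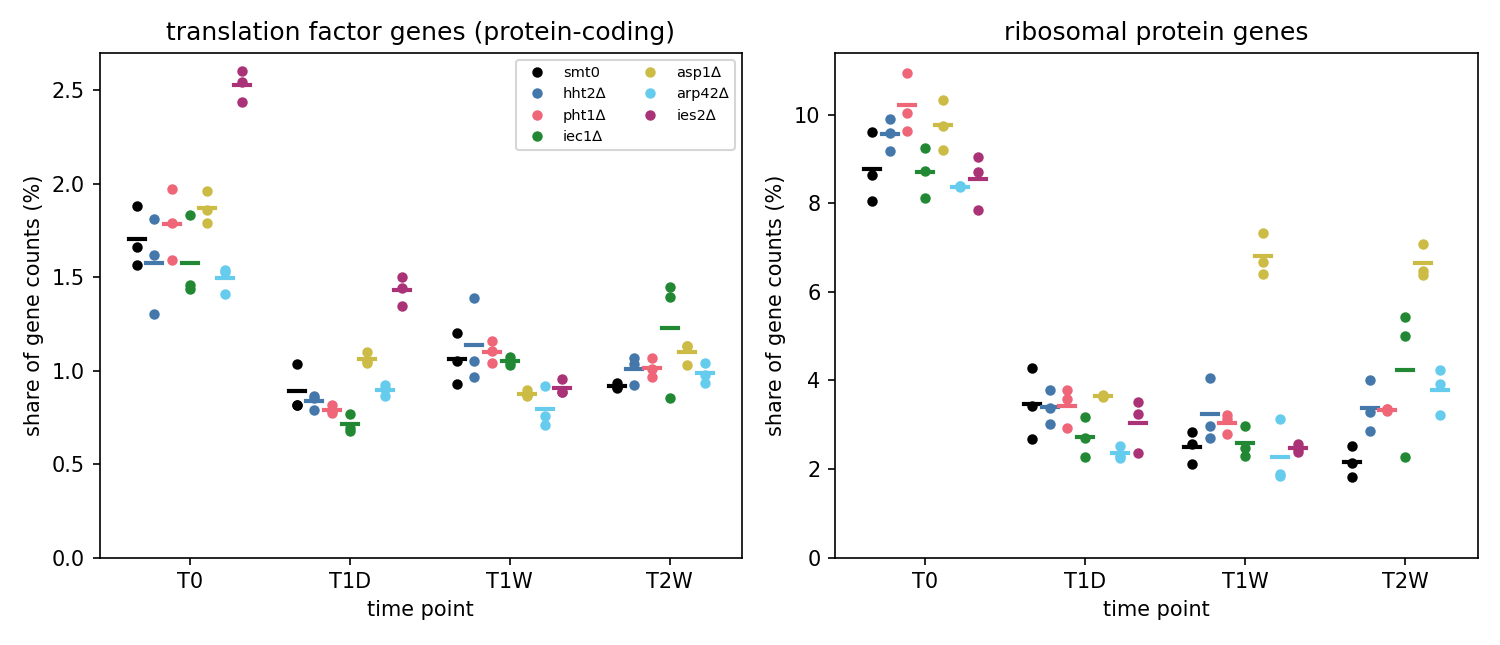
Share of all gene reads (percent, y axes) taken by the 27 coding translation factor genes (left) and by the ribosomal protein genes (right) in each library, by time point (x axis) and strain (colour), with points for cultures and a bar for the mean of each group. In smt0 the left share went from 1.70% at T0 to 0.890% at T1D, and the ies2∆ cultures stood highest at T0, with a mean of 2.53%.

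On this scale 25 members fell and none rose at T1D, 22 fell and 2 rose at T1W, and 23 fell and 2 rose at T2W. Of all genes 26.9, 30.5 and 32.6% fell at these times and 27.1, 29.3 and 31% rose. The median member changed by -1.21, -1.13 and -1.25 and the median gene by 0.02, -0.02 and -0.03. In all, 22 members fell at all 3 times and tef3 at T1D and T2W, while tef103 and tif225 fell at T1D alone. The 4 tested members that did not fall at any time were tif471, tif1102 and the antisense RNAs of tif211 and tef102. The members that rose, tif211-antisense-1 and tif471 at T1W and tif211-antisense-1 and tif1102 at T2W, fell on the ERCC scale, with log2 changes of -3.33, -4.77, -2.54 and -4.37. The sections that follow take the members by role, with smt0 values in relative CPM in the order A, B, C.

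Among the genes for eIF1A and eIF2, the factors that bring the initiator tRNA, all but tif1102 fell at every time. The largest level per kb of the group at T0 was that of tif11, which encodes eIF1A (chrII:3271874-3272718). It had 642.3, 676.9 and 691 relative CPM at T0, 231.8, 205.8 and 184.6 at T1D, 153, 162 and 193.1 at T1W, then 174.7, 196.4 and 170.5 at T2W. The starved cultures overlapped with each other across time points but lay far below those at T0, with log2 changes of -1.69 (SE 0.25), -1.98 (SE 0.25) and -1.89 (SE 0.25).

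The eIF2 subunits did not move by the same amount. tif213, the gamma subunit that binds GTP (chrII:2187455-2189134), had 253.6, 245.7 and 227.4 relative CPM at T0 and 49, 53.57 and 74.76 at T1D. It stayed between 43.17 and 62.32 at T1W and T2W, a fall of 2.05 (SE 0.21), 2.20 (SE 0.21) and 2.16 (SE 0.21) on the log2 scale. Every starved culture thus lay far below the lowest T0 culture. tif211, the alpha subunit that carries the regulatory phosphorylation site (chrI:3166394-3167699), went from 476.1, 452.3 and 422.7 to 152.2, 110.6 and 123.6 at T1D, 108.8, 137.9 and 126.4 at T1W, then 107.8, 102.6 and 76.67 at T2W. Its log2 changes were -1.81, -1.86 and -2.23 (SE 0.16 to 0.17). The beta subunit gene tif212 changed least of the trio, by -1.24, -0.69 and -0.72 (SE 0.24 each), and stood at 42.5, 62 and 60.9% of its T0 mean.

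tif1102, annotated as an eIF1A-like factor (chrII:1014863-1015825), went the other way at the last time point. Its relative CPM were 65.48, 53.4 and 63.4 at T0, 49.88, 56.87 and 49.38 at T1D, 70.15, 41.48 and 73.55 at T1W, then 78.93, 89.29 and 110.3 at T2W. Only the T2W cultures lay apart from those at T0. The rise of 0.61 (SE 0.28, adjusted p = 0.0490 by edgeR) was at the threshold, and leaving out any T0 culture or T2W replicate B or C gave adjusted p of 0.0615 to 0.186.

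The 3 genes for eIF2B, the exchange factor that reloads eIF2, changed in unequal measure. tif223, the gamma subunit (chrI:5367360-5369378), had 286, 260.1 and 249.3 relative CPM at T0 and 120.2, 111.9 and 109.5 at T1D. It was at 116.1, 115 and 112.1 at T1W, then 80.15, 135.4 and 118.7 at T2W, log2 changes of -1.22, -1.21 and -1.25 (SE 0.12 each). The delta subunit gene tif224 changed by -0.85, -0.83 and -0.71. tif225, the catalytic epsilon subunit, fell at T1D by 0.40 (SE 0.15, adjusted p = 0.0201 by edgeR), but stood at 106 and 101% of its T0 mean at T1W and T2W, with overlapping cultures.

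All 5 eIF3 genes fell at all 3 times. tif33, the member of highest level per kb, had 1294, 1176 and 1124 relative CPM at T0, 531.2, 496.9 and 647.8 at T1D, 542.9, 661.2 and 641.7 at T1W, then 471.2, 545.9 and 435.8 at T2W. Starved and growing cultures were clearly apart, by -1.10 (SE 0.17), -0.96 (SE 0.17) and -1.31 (SE 0.18). The genes for eIF3a (tif32), eIF3g (tif35) and eIF3m (tif313) changed by -0.89 to -1.37. tif38, for eIF3h, stood at 43.2, 32.4 and 24.3% of its T0 mean.

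Both genes for the cap-binding eIF4E fell at every time, while that for its partner eIF4G rose at T1W. tif45, for eIF4E (chrI:3527949-3529446), had 335.4, 359.9 and 359.3 relative CPM at T0, 141.3, 146.1 and 105.9 at T1D, 103.4, 112.2 and 123.8 at T1W, then 86.75, 125.7 and 79.12 at T2W. These are log2 changes of -1.42, -1.63 and -1.85 (SE 0.14 each). The other eIF4E gene, tif452 (chrII:1134244-1135619), changed by only -0.92, -0.91 and -0.81 (SE 0.13 each).

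tif471, the eIF4G gene (chrI:4491952-4496637), had 1101, 881.2 and 974.3 relative CPM at T0 and 578.4, 722.3 and 1273 at T1D, where the cultures overlapped with T0. It stood at 1264, 1514 and 1545 at T1W, then 1125, 1306 and 1497 at T2W, with all cultures of both times above all T0 cultures. The rise at T1W was 0.55 (SE 0.23, adjusted p = 0.0387 by edgeR), and the difference at T2W was 0.41 (SE 0.23, adjusted p = 0.121). Leaving out T0 replicate B or C or T1W replicate B or C raised the adjusted p of the rise at T1W to 0.0797 to 0.128.

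Of the remaining tif genes, tif5 and tif6 encode eIF5 and eIF6, which act around the joining of the ribosomal subunits, and tif51 and tif512 belong to eIF5A, which despite its name helps elongation past difficult peptide stretches. All 4 fell at all 3 times. tif512 (chrII:2758645-2759294), an eIF5A-like gene and the member with the highest level per kb of all at T0, had 1258, 930.9 and 855.5 relative CPM at T0. It had 311, 171.2 and 264.3 at T1D, 214.8, 277.2 and 280.5 at T1W, then 283.7, 293.3 and 274.8 at T2W. All starved cultures lay well below the T0 cultures. Its log2 changes were -2.03, -1.98 and -1.84 (SE 0.23 each).

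The other eIF5A gene, tif51, changed by -1.44, -1.53 and -1.79 (SE 0.17 each). tif6, for eIF6, which keeps the large subunit from joining too early (chrIII:2223086-2224470), had 359.1, 400.3 and 372.2 relative CPM at T0, 140.6, 119.3 and 91.04 at T1D, 75.12, 103.1 and 101.7 at T1W, then 83.33, 98.71 and 66.17 at T2W. All starved cultures lay below those at T0, and the log2 changes were -1.68, -2.02 and -2.19 (SE 0.21 to 0.22). tif5, for eIF5, stood at 51.2, 65.5 and 64.9% of its T0 mean.

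The elongation factor genes differed widely in their falls. tef5, for eEF1B (chrIII:1732730-1733847, 2 exons), had 1205, 1024 and 864.3 relative CPM at T0, 485.8, 244.3 and 277.3 at T1D, 144.4, 243.4 and 216 at T1W, then 151, 187.2 and 97.32 at T2W. The mean was 32.6, 19.5 and 14.1% of that at T0, and the log2 changes of -1.62 (SE 0.23), -2.36 (SE 0.24) and -2.83 (SE 0.25) were the largest of any member at T1W and T2W. tef3, for eEF3, fell to 57.9% of its T0 mean at T1D and 52.5% at T2W but stood at 79.5% at T1W, where its cultures overlapped with those at T0.

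Elongation factor eEF1A is encoded by 3 genes. tef103 (chrII:626004-627556) had 1422, 1245 and 1118 relative CPM at T0, 807.7, 687.6 and 940.5 at T1D, 1279, 1044 and 1422 at T1W, then 1090, 951 and 913 at T2W. Its T1W cultures overlapped with T0, and the log2 changes were -0.64 (SE 0.20, adjusted p = 0.00634 by edgeR), -0.02 (SE 0.20, adjusted p = 0.958) and -0.36 (SE 0.20, adjusted p = 0.116). tef101 (chrIII:267955-269523) had 1165, 1053 and 905.8 at T0, 222, 230.1 and 331.9 at T1D, 274.1, 425.8 and 414.2 at T1W, then 324, 383.3 and 257.7 at T2W, and fell by 2.00, 1.49 and 1.69 on the log2 scale (SE 0.26 each). The remaining gene, tef102, changed by -1.40, -1.67 and -2.15 (SE 0.35 to 0.36).

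Within each library, where no scaling enters, the eEF1A reads per kb therefore moved towards tef103. Its share was 44.8 ± 0.7% (SD, n = 3) at T0 and 64.3 ± 4.9, 70.1 ± 6.8 and 69.5 ± 4.3% at T1D, T1W and T2W in smt0. That of tef101 went from 36.6 ± 0.5 to 20.3 ± 1.1, 20.7 ± 4.6 and 22.4 ± 3.1%, and that of tef102 from 18.6 ± 0.8 to 15.4 ± 3.7, 9.20 ± 2.20 and 8.11 ± 1.98%. The same direction was seen in every strain. Over all 7 strains the tef103 share lay between 39.2 and 47.0% in the T0 cultures and between 56.3 and 81.4% in the starved ones, so the ranges did not meet.

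**Figure D2:**
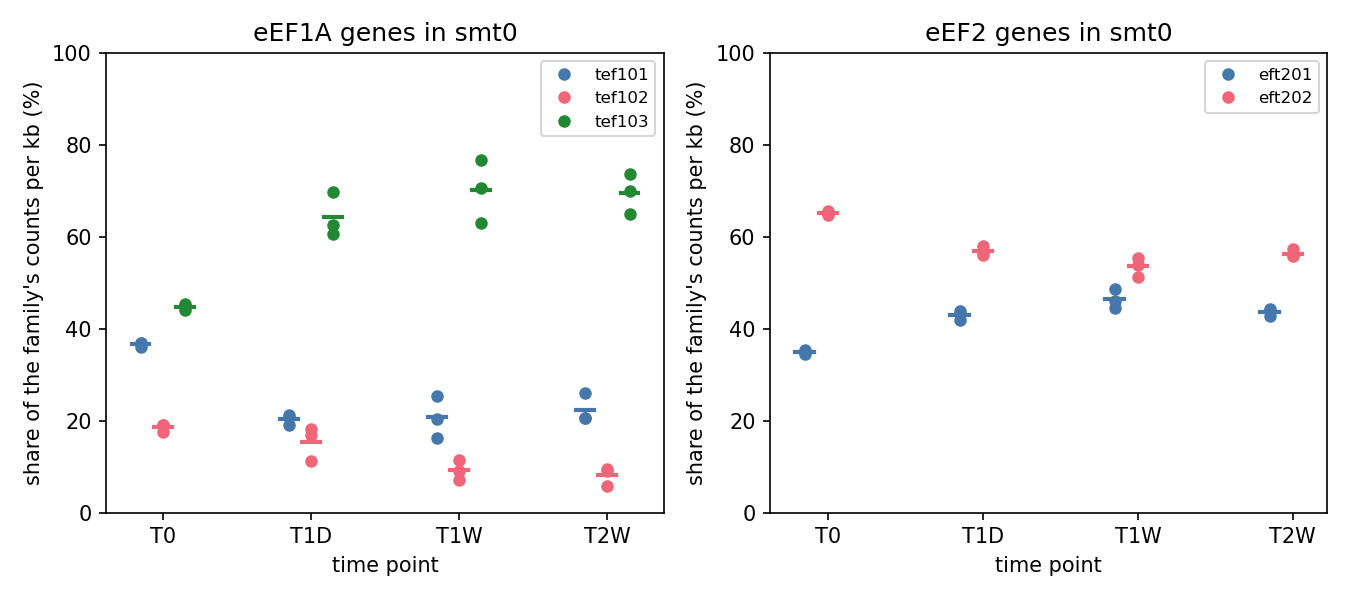
Share of each gene in the counts per kb of its family (percent, y axes) in smt0 by time point (x axis), for eEF1A (left) and eEF2 (right), with points for cultures and a bar for the mean of 3 cultures. The tef103 mean goes from 44.8% at T0 to 69.5% at T2W while that of tef101 goes from 36.6% to 22.4%, and the eft201 mean from 34.9% to 43.7%.

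These genes are close copies, and how reads matching several places were counted is not given in the sources used here. The coding sequences of tef101, tef102 and tef103 differ at 15 to 19 of 1383 bases, and 61.7, 72.7 and 70.0% of the 58-base stretches of the 3 genes (the read length) occur elsewhere in the genome. When reads were divided by the number of positions that occur once, in place of the length, the tef103 shares were 48.2, 66.7, 73.0 and 72.8%. The direction was the same, but a single value is uncertain by such amounts. Sequencing was paired, so a read can also be placed by its mate, which these single stretches leave out of account.

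The letters before each start were compared because ribosomal protein genes of fission yeast share the promoter motif HomolD, here searched as CAGTCACA on both strands, and often HomolE, searched as CCCTACCC. In the 250 bases before and 50 after the RefSeq gene start, HomolD was found in 4 of the 27 coding members (14.8%), all 3 eEF1A genes and tef3, against 2.7% of 5112 coding genes and 64.1% of the 131 ribosomal protein genes. HomolE was found in eft202 and tif512 (7.4%, against 1.6% and 35.9%). These counts depend on the annotated start. In tif38, for eIF3h, HomolD began 76 bases before the start in the count table. That start lies 285 bases farther out than the RefSeq start, so the match fell outside the window searched. The shares of all genes were searched from RefSeq starts alone. The 3 stretches printed stop just before the outer of the 2 annotated starts, that of RefSeq for eft202 and that of the count table for tef103 and tef101, and run in the sense of transcription with the motif in capitals (TGTGACTG and GGGTAGGG are the motifs read on the other strand), because tef103 and tef101 carry the same motif and differed in their changes. The stretch of tef101 also overlaps 1 other annotated gene. A match describes letters and no bound factor. Coordinates are those of ASM294v3.
tef103 chrII:627557-627706 minus strand: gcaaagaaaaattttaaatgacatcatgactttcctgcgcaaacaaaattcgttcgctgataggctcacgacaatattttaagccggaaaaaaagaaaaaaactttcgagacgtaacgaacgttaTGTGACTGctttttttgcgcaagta
tef101 chrIII:269524-269673 minus strand: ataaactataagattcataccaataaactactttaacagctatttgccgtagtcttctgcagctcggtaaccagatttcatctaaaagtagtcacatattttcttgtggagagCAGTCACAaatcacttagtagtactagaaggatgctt
eft202 chrIII:537203-537289 plus strand: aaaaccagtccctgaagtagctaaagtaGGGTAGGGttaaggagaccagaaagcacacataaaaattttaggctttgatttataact

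Counted from the RefSeq starts, HomolD began 59 bases before that of tef103, 56 before that of tef102 and 44 before that of tef101. The starts in the count table lie 34 bases farther out for tef103 and 7 for tef101, so that the motif began 25 and 37 bases before the end of the printed stretches, and the order of these distances depends on the annotation. No HomolD match was found in either eEF2 gene, and HomolE began 59 bases before the RefSeq start of eft202.

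Both eEF2 genes fell at all times, and the more abundant one fell further. eft202 (chrIII:537298-539922) had 904.8, 774.7 and 705 relative CPM at T0, 271.5, 235.5 and 328.3 at T1D, 207.7, 295.9 and 302.6 at T1W, then 189.6, 216.8 and 142.1 at T2W, with log2 changes of -1.51, -1.56 and -2.12 (SE 0.25 each). eft201 changed by -1.01, -0.86 and -1.58 (SE 0.23 to 0.24), and its share of the eEF2 reads per kb went from 34.9 ± 0.4% to 43.0 ± 1.0, 46.4 ± 2.1 and 43.7 ± 0.8%. The coding sequences of this pair differ at 11 of 2529 bases and 83.3 and 82.8% of their 58-base stretches occur elsewhere.

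In the eIF4E pair, whose stretches are all unique, the share of tif452 went from 32.9 ± 1.5% to 40.8 ± 1.7, 44.8 ± 1.0 and 50.5 ± 6.4%. For eIF5A, with 47 differing coding bases of 474 and unique stretches, tif51 took 47.8 ± 0.5, 58.5 ± 5.0, 55.7 ± 2.5 and 48.7 ± 1.0%, so that the T1D shift towards tif51 was no longer seen at T2W.

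**Figure D3:**
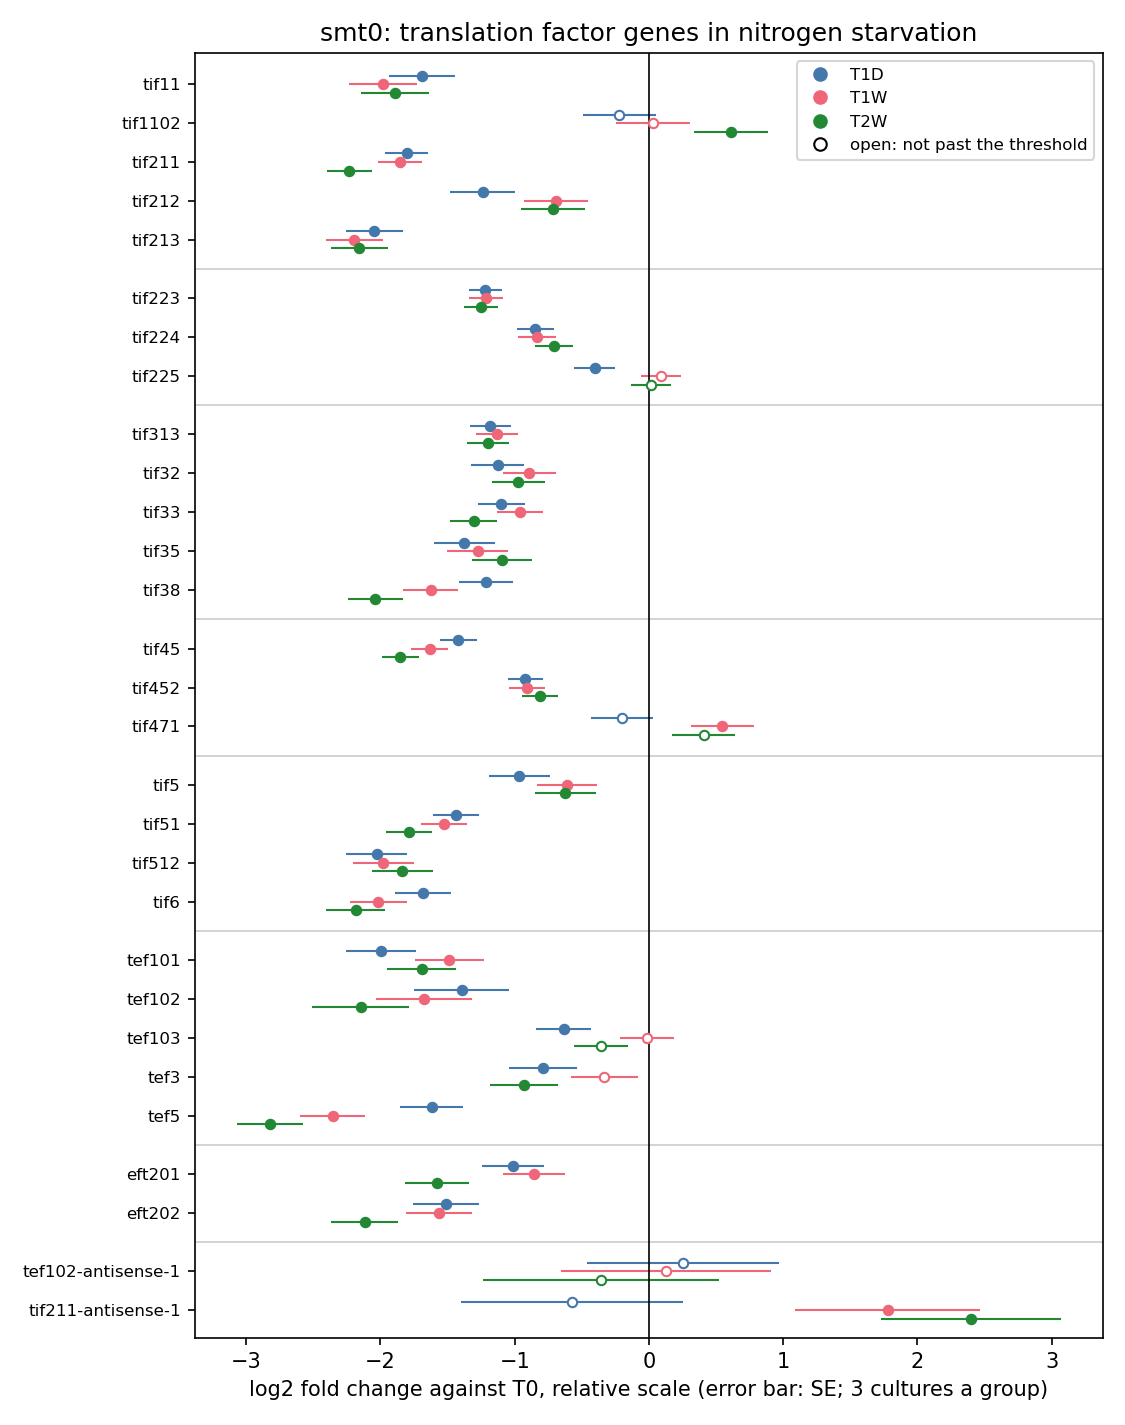
Log2 fold change against T0 on the relative scale (x axis) of each tested member (y axis, ordered by role with lines between the groups) in smt0 at T1D, T1W and T2W (colours), with SE bars and filled points for changes past the threshold. The points of tef5 lie farthest to the left at T1W and T2W, and filled points to the right of 0 belong to tif471, tif1102 and tif211-antisense-1.

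The antisense RNA of tif211 had few reads in smt0 but rose late. tif211-antisense-1 (chrI:3166349-3166977) shares 584 of its 629 bases with the eIF2 alpha gene on the opposite strand. It was counted with 7, 8 and 6 reads at T0, 4, 11 and 2 at T1D, 23, 9 and 19 at T1W, then 47, 4 and 10 at T2W, or 1.10, 0.937 and 1.06, then 0.441, 0.932 and 0.552, then 4.97, 2.75 and 2.95, then 11.5, 1.05 and 3.50 relative CPM. The T1W cultures lay above all T0 cultures, while at T2W replicate B was at the T0 level.

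The rises were 1.78 (SE 0.69, adjusted p = 0.0230 by edgeR) at T1W and 2.40 (SE 0.67, adjusted p = 0.00158) at T2W. Without T2W replicate A the latter was 1.05 (adjusted p = 0.292), and the former lost the threshold without T0 replicate B (0.0671) or T1W replicate A (0.110). The library kit keeps strand, but whether the counting used it is not given in the sources used here, so reads of this RNA and of tif211 cannot be told apart with certainty. tef102-antisense-1, with 880 of 1106 bases shared with tef102, had at most 24 reads in any library. All 325 bases of tef103-antisense-1 lie within tef103, and it had at most 3 reads, against up to 45965 on tef103. The many reads of tef103 were thus not counted on its antisense RNA.

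A further 27 genes were listed by symbol, most for translation (eIF3 subunits, release and recycling factors, eIF2 kinases, diphthamide genes and others). The list also holds pab1 and ppa1, which in fission yeast encode subunits of the phosphatase PP2A. Both are counted among the 27 and in the medians, and passed at no time on the relative scale. On the relative scale in smt0, 16 fell at each of the 3 times and 1, 2 and 2 rose, with medians of -0.64, -0.50 and -0.69. The eIF3 genes sum1, int6 and moe1 changed by -1.09 to -1.67, much like the eIF3 members, and cpc2, for the ribosome-bound RACK1 homologue, by -2.15, -2.03 and -2.27. Of the eIF2 kinase genes, hri1 rose at T1D by 0.88 (SE 0.25) and gcn2 at T1W and T2W by 0.65 and 0.41 (SE 0.17 each). The kinase gene hri2 passed at no time (0.03, 0.28 and 0.27, SE 0.19 each). On the ERCC scale none of these 27 genes rose at any time, and all 27 fell at T1W and T2W. Of the ribosomal protein genes 124, 126 and 126 of 131 fell, with medians of -1.56, -2.02 and -2.34.

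The mutants were compared with smt0 at the same time point. In the study's flow cytometry every mutant was less viable than smt0 at T2W. Of all strains, iec1∆ had the smallest percentage of cells counted as G0 by DNA content at each starved time. From T1D on this percentage was lower than in smt0 in every mutant but hht2∆. In those mutants, differences from smt0 at T1D and later thus set cultures of unlike arrest against each other. Late differences also set cultures of unlike survival against each other, and the part of arrest or survival was not tested. On the ERCC scale at T1D most mutants differed from smt0 across the whole transcriptome. For tif33, smt0 had 0.347, 0.156 and 0.0944 reads per ERCC read and hht2∆ 0.639, 0.190 and 0.329. The pht1∆ cultures had 0.0203, 0.0204 and 0.0220, the iec1∆ cultures 0.0250, 0.00571 and 0.0142, the asp1∆ cultures 0.0132, 0.0116 and 0.00928 and the arp42∆ cultures 0.00114, 0.00102 and 0.00387. These 4 mutants lay below every smt0 culture and arp42∆ below all others.

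Accordingly, 27 members were lower in pht1∆ (93.8% of all genes), 27 in iec1∆ (93.7%), 29 in asp1∆ (96.4%) and 29 in arp42∆ (98.4%). The median member and the median gene differed from smt0 by much the same amount, -3.12 and -3.09, -3.69 and -3.60, -4.13 and -4.36, and -6.29 and -6.52. The exceptions in pht1∆ and iec1∆ were the antisense RNAs of tif211 and tef102. In hht2∆ no member passed the test with edgeR, none had an unadjusted p below 0.05 and DESeq2 called none (0.938% of all genes passed), with a median of 0.92.

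In ies2∆ the scaling sets the answer. After the shift of 3.70 log2 units applied to its batch, tif33 stood at 0.615, 0.492 and 0.547, and tef101, tef103 and tif213 were higher than in smt0 by 2.49, 2.46 and 2.06 (3 members, against 6.75% of all genes in either direction). Without the shift 27 members were lower and none higher. The study's methods, which normalized the second batch at T0, can also be read as a shift of its T0 libraries only. The study reported most genes as lower in ies2∆ than in wild type at T1D. With the shift, leaving out 1 culture gave 14 calls without smt0 replicate A, 1 without ies2∆ replicate C and none without smt0 replicate B or C or ies2∆ replicate A.

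The comparisons that follow use the relative scale, so they do not depend on the ERCC reads. On the ERCC scale every member named as higher in asp1∆ or arp42∆ at T1D was lower than in smt0, as nearly all genes were. Over the 23 comparisons of a mutant with smt0, tef103 was higher in 10 and lower in none, tef102 in 8, and tef101 and tif512 in 6 each. tif211-antisense-1 was higher in 8 and lower in 1. The eIF2B genes tif224 and tif225 were lower in 7 and 6 and tif452 in 6. All mutants at 1 time point were set against the same 3 smt0 libraries, so these counts are not independent of each other. The eEF1A genes also share most of their 58-base stretches, and the ies2∆ batch is among the comparisons. In a single comparison 0.409% (hht2∆ at T1D) to 55.3% (asp1∆ at T1W) of all genes passed in either direction. How many of the 23 any other gene passed was not counted. Several counts of members below were near or under the share of all genes given with them.

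**Figure D4:**
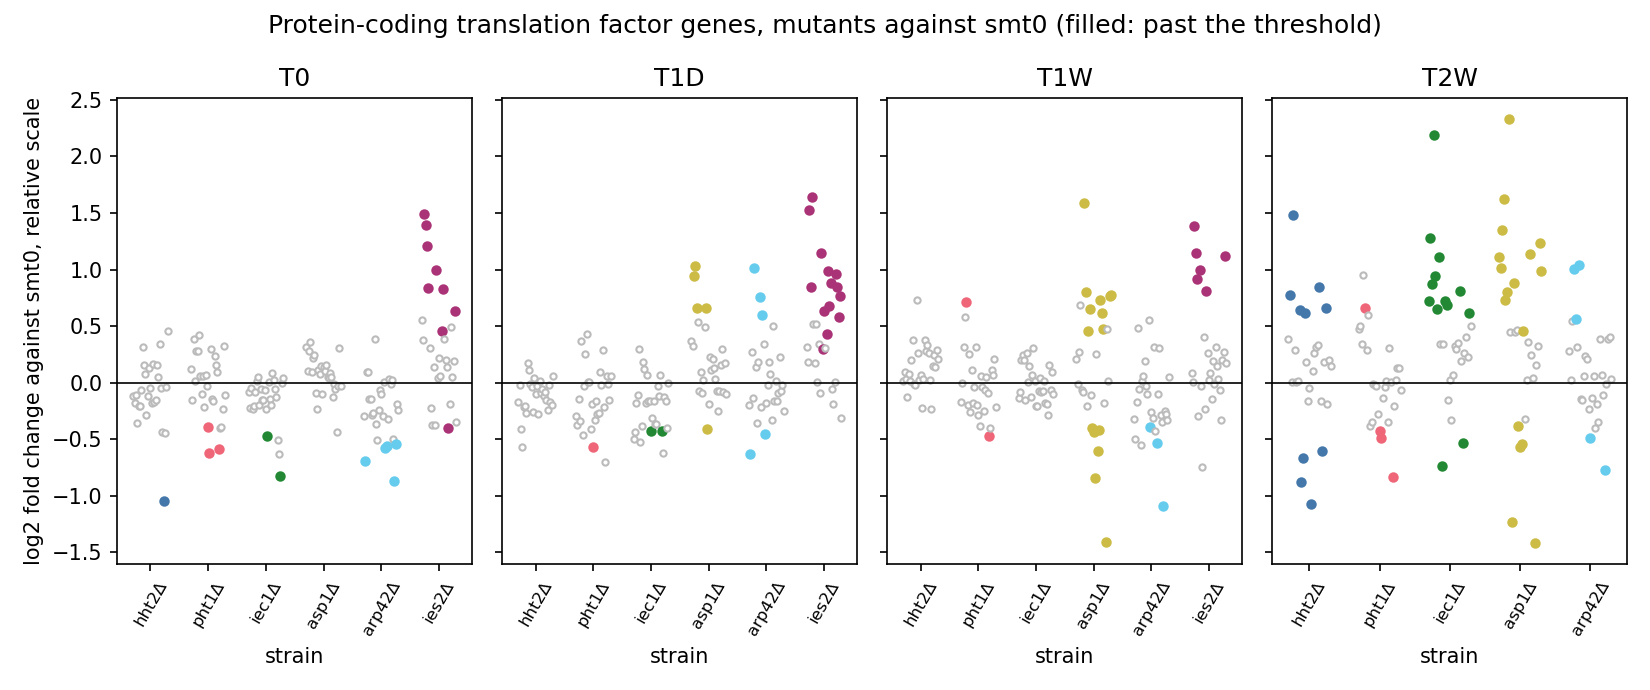
Log2 difference from smt0 on the relative scale (y axis) of the 27 coding members in each mutant (x axis) at T0, T1D, T1W and T2W (panels), with a point for each gene, filled and coloured by strain where it passed the threshold. The highest point is tef5 in asp1∆ at T2W, at 2.33, the lowest are those of tif471 in asp1∆, and hht2∆ at T1D has open points only.

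The libraries labelled asp1∆ were closest to smt0 during growth and farthest from it late in quiescence. At T0 no member passed the test with edgeR (3.22% of all genes did), none had an unadjusted p below 0.05 and DESeq2 called none. At T1D 5 were higher and 1 lower (12% of all genes in either direction), among them tef102, 1.03 above (SE 0.35), tef101, 0.94 above (SE 0.25), and tef102-antisense-1, 2.13 above on 5 to 23 reads per culture. This count was 0 without smt0 replicate A or B, 1 without asp1∆ A or C and 3 without asp1∆ B.

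At T1W 9 members were higher and 6 lower in asp1∆, against 55.3% of all genes, and at T2W 12 and 6, against 52.6%. The largest difference was that of tef5, the eEF1B gene, with 535.2, 640.9 and 634.9 relative CPM at T1W against 144.4, 243.4 and 216 in smt0, and 719.3, 730.6 and 743 at T2W against 151, 187.2 and 97.32. All asp1∆ cultures lay above all smt0 cultures, by 1.59 (SE 0.24, adjusted p = 9.81e-08 by edgeR) and 2.33 (SE 0.24, adjusted p = 1.50e-11). The smt0 cultures at T0 had 864.3 to 1205.

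eIF4G went the opposite way. tif471 had 589.6, 519.8 and 521.7 relative CPM in asp1∆ at T1W, then 494.1, 449.8 and 526.2 at T2W, against 1125 or more in every smt0 culture of these times. The differences were -1.41 (SE 0.24) and -1.42 (SE 0.24), and the groups did not overlap.

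By role, all 5 genes for eEF1 and eEF3 and both for eEF2 were higher in asp1∆ at T2W, with medians of 1.35 and 1.06, and tif512 by 1.23. All 3 eIF2B genes were lower at T1W and at T2W, tif225 at -0.85 (SE 0.15) at T1W, and tif1102 was lower at T2W, at -1.23 (SE 0.29). Of the ribosomal protein genes 129 of 131 were higher at each of these times, by medians of 1.68 and 1.89. Among the 27 further genes listed by symbol, 9 were higher and 6 lower at T2W. The share of the coding members in all gene reads was 0.876 ± 0.017% at T1W and 1.10 ± 0.06% at T2W (smt0: 1.06 ± 0.14 and 0.918 ± 0.015%). tif211-antisense-1 was lower at T2W, at -1.69 (adjusted p = 0.0498), a value of -0.34 (adjusted p = 0.776) without smt0 T2W replicate A.

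In ies2∆ the eEF1A genes stood above smt0 from growth on, with 8 members higher and 1 lower at T0, against 21.6% of all genes. tef101 had 3303, 3178 and 2291 relative CPM at T0 against 1165, 1053 and 905.8 in smt0, and tef103 had 3131, 3014 and 2627 against 1422, 1245 and 1118. Both groups were fully apart, by 1.49 (SE 0.26) and 1.21 (SE 0.20), and tef102 was higher by 1.39 (SE 0.35). The share of the coding members in all gene reads was 2.53 ± 0.08% against 1.70 ± 0.16%, while that of ribosomal protein genes was 8.54 ± 0.62% against 8.77 ± 0.79%. The count was 5 without smt0 T0 replicate B or C, and 7 without ies2∆ T0 replicate C, the library with the highest count of ies2.

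At T1D 14 members were higher in ies2∆ and none lower, against 43% of all genes. Replicate B stood apart, with 37.3% of the smt0 level of ies2 and 0.434% of its gene reads on the coding elongation factor genes, against 0.802 and 0.870% in A and C, and 0.912% on the initiation factor genes, against 0.638 and 0.631%. Without it 12 members were higher and 1 lower. tef103 had 2757, 1956 and 2881 relative CPM, all above the smt0 maximum of 940.5, a difference of 1.64 (SE 0.21). tef101 had 885.8, 304.3 and 1060, where replicate B lay within the smt0 range, and differed by 1.52 (SE 0.26), and tif213 by 1.15 (SE 0.21). At T1W 6 members were higher and none lower (16.3% of all genes), led by tef101 with 1.39 (SE 0.26), tef102 with 1.14 (SE 0.35) and tif512 with 1.12 (SE 0.22). As these libraries are a batch of their own, strain and batch cannot be told apart in any of these differences.

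The libraries labelled arp42∆ were lower in a few members during growth and differed from smt0 in both directions at T1D. At neither time was the share of members called above that of all genes. At T0 5 members were lower and none higher (19.6% of all genes in either direction). tif5, for eIF5, had 232, 236.5 and 238.1 relative CPM against 539.3, 384.5 and 368.2 in smt0, with no overlap, a difference of -0.87 (SE 0.23), and eft202 and tif32 differed by -0.69 (SE 0.24) and -0.57 (SE 0.19). The count was 0 without smt0 T0 replicate A, 2 without arp42∆ A or B and 3 without smt0 B.

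At T1D 5 members were higher and 2 lower in arp42∆ (32.2% of all genes). tef103 had 2162, 1505 and 1260 relative CPM against 807.7, 687.6 and 940.5, and against 1075, 1287 and 1059 in arp42∆ itself at T0. All 3 lay above the smt0 cultures. The difference from smt0 was 1.02 (SE 0.20, adjusted p = 9.48e-05 by edgeR). The antisense RNAs of tef102 and tif211 were higher by 2.69 and 2.53 on 24, 20 and 7 and 14, 22 and 8 reads. The count of 7 became 3 without arp42∆ replicate B and 4 without smt0 replicate A.

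In a test of the change from T0 to T1D itself, 5 members had a more positive change in arp42∆ than in smt0 and none a more negative one, while 23.2% of all genes passed in either direction, so the number of members is not above that share. They were tef102-antisense-1 (2.82, SE 0.95), tef103 (1.16, SE 0.29), tif212 for eIF2 beta (1.11, SE 0.34), tif5 (1.10, SE 0.32) and tif35 for eIF3g (0.82, SE 0.32). The count was 3 without any of smt0 T0 replicates A and C, smt0 T1D replicates A and B and arp42∆ T1D replicates A and B. No member passed this test with edgeR in hht2∆, pht1∆, iec1∆, asp1∆ or ies2∆, where 1.71, 2.35, 3.1, 5.22 and 5.39% of all genes did. At an unadjusted p below 0.05 these 5 mutants had 3, 3, 3, 2 and 4 members, and DESeq2 called 2 in iec1∆ and none in the others. In iec1∆ the edgeR count was 2 without T0 replicate B and 1 without T1D replicate A, and in ies2∆ it was 1 without T1D replicate C.

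Later in quiescence tif471 was among the members lower in arp42∆, as it was in asp1∆. The counts of members at both later times were near the share of all genes. At T1W 3 members were lower and none higher (10.7% of all genes), with tif471 at 611.3, 496.4 and 915.2 relative CPM against 1264, 1514 and 1545, a difference of -1.09 (SE 0.24), and tif33 and tif223 at -0.53 (SE 0.17) and -0.39 (SE 0.13). At T2W 3 were higher and 2 lower (16.8%), with tef5 at 325.2, 320.3 and 251.3 against 151, 187.2 and 97.32 (1.04, SE 0.23), tef102 at 1.00 (SE 0.35) and tif471 at -0.78 (SE 0.23). The count at T1W was 0 without arp42∆ replicate B, 1 without arp42∆ A or smt0 B and 6 without arp42∆ C. At T2W it was 1 without smt0 C, arp42∆ A or arp42∆ B and 3 without smt0 B.

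In iec1∆ the antisense RNA of tif211 was the member that stood out. It had 8.654, 26.95 and 15.31 relative CPM at T1D against at most 0.932 in smt0, 15.5, 14.6 and 30.0 at T1W against at most 4.97, and 38.1, 20.1 and 32.3 at T2W against at most 11.5. The groups were apart at each time, by 4.59 (SE 0.64), 2.49 (SE 0.54) and 2.47 (SE 0.53). It was the only member higher at T1D, where tif224 and tif452 were lower, at -0.43 (SE 0.14) and -0.42 (SE 0.13) (15.5% of all genes passed), and the only member called at T1W (0.53%). The T1W call was lost without smt0 replicate B or C or iec1∆ replicate C, and the 3 calls at T1D became 1 without iec1∆ C. At T0 tif51 and tif225 were lower, at -0.83 (SE 0.17) and -0.48 (SE 0.15), against 6.84% of all genes, and the call of tif225 was lost without any smt0 culture or iec1∆ A or C, while 4 members were lower without iec1∆ B.

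At T2W 13 members were higher and 2 lower in iec1∆ (34.1% of all genes), but 1 culture did not take part. tef102 had 584.5, 156.6 and 755.2 relative CPM against 137.3, 123.8 and 67.57, and eft202 had 510.4, 206.6 and 610.1 against 189.6, 216.8 and 142.1, so that replicate B lay near smt0 in both. The differences were 2.19 (SE 0.36) for tef102, 2.25 (SE 0.79) for tef102-antisense-1 and 1.28 (SE 0.25) for eft202. The coding members took 1.39, 0.852 and 1.45% of the gene reads of cultures A, B and C and the ribosomal protein genes 5.01, 2.27 and 5.43%. Without replicate B 20 members were higher and 2 lower, without replicate C 6 and 1, without smt0 replicate C 8 in all, and in a fit of these 2 groups alone none passed.

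For pht1∆ few members passed the test. At T0 tif225 (-0.63, SE 0.15), tif452 (-0.59, SE 0.13) and tif224 (-0.40, SE 0.14) were lower, against 11.6% of all genes. At T1D tif211-antisense-1 was higher by 2.89 (SE 0.66) on 11, 51 and 69 reads and tif224 lower, at -0.57 (SE 0.14), against 7.7%. At T1W tef103 was higher by 0.71 (SE 0.20) and tif452 lower, at -0.47 (SE 0.13), against 4.18%.

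At T2W 2 members were higher and 3 lower in pht1∆ (17.6% of all genes). tif452, the other eIF4E gene, had 52.46, 50.21 and 54.2 relative CPM against 72.33, 104.5 and 102.9, fully apart (-0.83, SE 0.14). tif211-antisense-1 was higher by 1.54 (SE 0.53) and tef103 by 0.66 (SE 0.20). The calls at T1W numbered 0 without smt0 B or C or pht1∆ A or B and 1 without smt0 A, those at T1D 1 without smt0 C or pht1∆ C, and those at T2W 1 without smt0 C and 2 without smt0 B or any pht1∆ culture.

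In hht2∆ few members passed the test before T2W. At T0 tif5 had 215.3, 173 and 236.6 relative CPM against 539.3, 384.5 and 368.2, lower, at -1.05 (SE 0.23, adjusted p = 0.00307 by edgeR), and no other member passed (4.65% of all genes). It lost the threshold without hht2∆ replicate B (0.0563), and 3 members passed without replicate A, which had 329 reads of hht2 against 12 in B and 24 in C. At T1D no member passed with edgeR (0.409% of all genes), none had an unadjusted p below 0.05 and DESeq2 called none.

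The antisense RNA of tif211 then rose far above smt0 in hht2∆. It had 20.6, 56.1 and 47.5 relative CPM at T1W against 4.97, 2.75 and 2.95, and 306.9, 169.8 and 315 at T2W, on 1966, 806 and 1411 reads, against 11.5, 1.05 and 3.50. All cultures were apart, by 3.54 (SE 0.54, adjusted p = 4.08e-05 by edgeR) and 5.58 (SE 0.55, adjusted p = 1.67e-11). In a fit of hht2∆ and smt0 at T2W alone, which has fewer samples, no member passed, this RNA included. At T2W the antisense RNA was counted 3.96, 3.73 and 5.49 times as often as tif211 itself, against 0.107, 0.0102 and 0.0457 times in smt0. tif211 had 77.42, 45.51 and 57.37 relative CPM against 107.8, 102.6 and 76.67 in smt0 and was lower, at -0.67 (SE 0.16). This RNA was the only member called at T1W, where 0.53% of all genes passed, and 2 members were called without hht2∆ C.

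**Figure D5:**
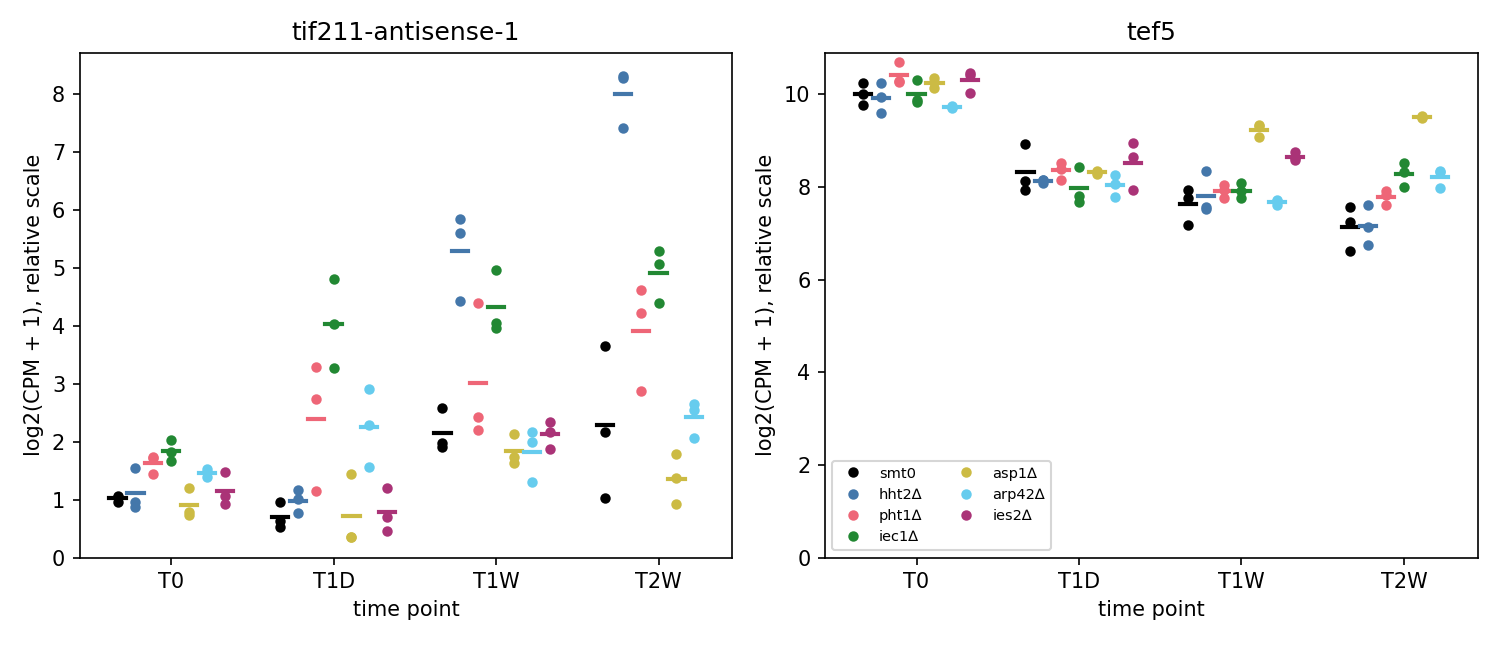
Relative-scale level, as log2 of CPM plus 1 (y axes), of tif211-antisense-1 (left) and tef5 (right) by time point (x axis) and strain (colour), with points for cultures and a bar for the mean of each group. The antisense RNA stands highest in hht2∆ at T2W, where it had 169.8 to 315 relative CPM against 1.05 to 11.5 in smt0, and tef5 in asp1∆ at T2W, with 719.3 to 743 against 97.32 to 187.2, lies above all other cultures of that time.

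At T2W 7 members were higher and 4 lower in hht2∆, against 47% of all genes, but the cultures differed. tef102 had 561.3, 148.7 and 208.5 relative CPM against 137.3, 123.8 and 67.57, higher by 1.48 (SE 0.36) and by 0.70 (adjusted p = 0.129) without replicate A. tif225 had 69.93, 115.9 and 62.95 against 155.4, 195.1 and 173.6, fully apart and lower, at -1.08 (SE 0.15). Replicates A and C, where tif225 was lowest, had 898 and 251 reads of hht2 and replicate B 13, and the part of this in the differences was not tested. The count of 11 was 5 without replicate A, 9 without replicate C and 7 without smt0 replicate C, and replicate B alone against smt0 gave 1 higher and 1 lower. A fit of these 2 groups alone called none, and with the replicate letters as a block, which pair these cultures, it called 1 higher and 2 lower.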

How the data were processed

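RNA was depleted of rRNA and made into libraries with a stranded kit. Per the study's methods and the submitters' processing notes, the authors demultiplexed the reads with bcl2fastq 2.20.0.422, mapped them to ASM294v2 plus the ERCC transcripts by STAR 2.7.9a, and assigned them to exons by featureCounts 1.5.1. The deposited values are whole read counts per gene and per ERCC transcript, without normalization or comparisons, and each column names its strain, time point and culture. Replicates of a group differed by more than counting noise (lowest chi-square per degree of freedom 3.5). The p-values rest on a spread between cultures estimated over all groups together, which can differ from that of the groups compared.

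Counts were fitted with edgeR 4.0.16 (quasi-likelihood, limma 3.58.1, R 4.3.3), all 27 groups together without a block, and adjusted over 6608 genes. ERCC library sizes were the ERCC total times its TMM factor, with the ies2∆ libraries shifted together by 3.70 log2 units so that their mean gene-to-ERCC ratio at T0 equals that of the other batch. Alternatives were the other scale, DESeq2 1.42.0, no filter, only the groups compared, a replicate block, no shift and leaving out each culture. A block within hht2∆ and smt0 at T2W, hht2∆ replicate B alone and unique positions were added after seeing the data. Replicate letters were checked by the correlation of deviations from group means. For smt0 at T1D and T0 these were -0.069, 0.064 and 0.039 for A, B and C.

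Values in every culture are given for the member with the highest reads per kb of each role group, the 4 largest rises and falls at each time in smt0, and, in a mutant, for members among the 3 largest differences past the threshold. The members, gene lists and tests were chosen with earlier results of these data known. Gene positions are those of the count table (ASM294v2, Ensembl annotation). Sequences came from RefSeq (ASM294v3). The builds were compared by the exon gaps of the count table, of which 99.6% begin GT and end AG on the RefSeq sequence. Gene ends differed more: of 6846 genes matched by locus tag, 1997 had the same first and last base in both annotations. All 27 coding members matched by locus tag. The fit was tested on simulated data. Plots were drawn with matplotlib 3.10.9.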

Additional observations from a re-analysis of the deposited data

Results flagged for a closer look

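The change from T0 to T1D differed between arp42∆ and smt0 in a test of that difference for 5 members, given as log2 values of the arp42∆ change minus the smt0 change, with SE and adjusted p by edgeR. Of all genes 23.2% passed this test, and the count of members was 3 without any of smt0 T0 replicates A and C, smt0 T1D replicates A and B and arp42∆ T1D replicates A and B. These were tef103 (1.16, SE 0.29, adjusted p = 0.00190), tif5 (1.10, SE 0.32, adjusted p = 0.00909), tif212 (1.11, SE 0.34, adjusted p = 0.0121), tef102-antisense-1 (2.82, SE 0.95, adjusted p = 0.0247) and tif35 (0.82, SE 0.32, adjusted p = 0.0499). For tif5 the T1D cultures of both strains were at similar levels (232.6, 270 and 271.1 relative CPM in arp42∆, 248.5, 200.5 and 212.4 in smt0), and the T0 cultures were apart. For tef103 the strains overlapped at T0 and were apart at T1D.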

How the results depend on the processing

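Using no filter on low counts left all 41 counts of members called within 1.5 times of those reported, as did adding the replicate letter as a block over all groups (24 calls for smt0 T1D on the ERCC scale, 13 for ies2∆ T1D on the relative scale). By the correlation of deviations, the letters went together in hht2∆ and smt0 at T2W alone (0.48, 0.366 and 0.268, 1 of 26 pairs of groups with every value over 0.1). There the block in a fit of these 2 groups gave 3 calls.

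The choice of scale mattered most. With TMM factors in place of ERCC scaling at T1D, the calls were 2 in pht1∆, 3 in iec1∆, 6 in asp1∆, 7 in arp42∆ and 14 in ies2∆. Without the shift of the second batch ies2∆ had 27, with tef101, tef103 and tif213 at -1.22, -1.24 and -1.64. With ERCC scaling in place of the relative scale, the calls at T0 were 0 in hht2∆, pht1∆, iec1∆, arp42∆ and ies2∆. At T1D they were 27 in pht1∆, 27 in iec1∆, 29 in asp1∆, 29 in arp42∆ and 3 in ies2∆. At T1W they were 0 in hht2∆ and pht1∆, 29 in arp42∆ and 29 in ies2∆. Members were lower than in smt0 in arp42∆ and higher in the shifted ies2∆ libraries. Mean tif33 was 0.0007932 reads per ERCC read in arp42∆ and 0.152 in ies2∆, against 0.01195 in smt0. The shares of all genes for T1W and T2W are not given here. At T2W the calls were 5 in hht2∆, 0 in pht1∆ and iec1∆, 7 in asp1∆ and 26 in arp42∆. For the change from T0 to T1D they were 27 in pht1∆ and iec1∆ and 29 in asp1∆ and arp42∆. Differences that turned under ERCC scaling were, in smt0, tif211-antisense-1 (-3.33 at T1W, -2.54 at T2W), tif471 (-4.77 at T1W) and tif1102 (-4.37 at T2W). In asp1∆ at T1D they were tef102-antisense-1 (-1.89), tef102 (-3.005) and tef101 (-3.24), and in arp42∆ at T1D tef102-antisense-1 (-3.81), tif211-antisense-1 (-3.94) and tef103 (-5.52). At T2W tef103 in pht1∆ (-0.60) and tef5 (-1.22) and tef102 (-1.28) in arp42∆ turned, as did, for the change to T1D in arp42∆, tef102-antisense-1 (-2.72), tef103 (-4.49) and tif212 (-4.32). ERCC scaling adds to each difference the shift of the whole library.

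In fits of only the groups compared, which have fewer samples, the calls were 1 for iec1∆ and 13 for arp42∆ at T0, and 1 for pht1∆, 1 for iec1∆, 3 for arp42∆ and 3 for ies2∆ at T1D (0 for ies2∆ on the ERCC scale). They were 1 for pht1∆ and 1 for arp42∆ at T1W, 0 for hht2∆, 1 for pht1∆, 0 for iec1∆ and 3 for arp42∆ at T2W, and 1 for the change to T1D in iec1∆ and in asp1∆. DESeq2 gave 6 calls for ies2∆ at T1D on the ERCC scale, 2 for hht2∆ at T0, 1 for iec1∆ at T1D and 2 for the change in iec1∆. The cause of these differences was not tested.

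Leaving out 1 culture at a time gave 5 to 27 calls for smt0 at T1D and 0 to 14 for ies2∆ at T1D on the ERCC scale. On the relative scale the ranges at T0 were 0 to 3 for hht2∆, 1 to 4 for iec1∆, 0 to 4 for arp42∆ and 5 to 9 for ies2∆. At T1D they were 1 to 3 for pht1∆, 1 to 4 for iec1∆, 0 to 7 for asp1∆ and 3 to 8 for arp42∆. At T1W they were 1 to 2 for hht2∆, 0 to 3 for pht1∆, 0 to 1 for iec1∆ and 0 to 6 for arp42∆, and at T2W 5 to 13 for hht2∆, 1 to 7 for pht1∆, 7 to 22 for iec1∆ and 1 to 6 for arp42∆. For the change to T1D they were 3 to 6 for arp42∆, 0 to 2 for iec1∆ and 0 to 1 for ies2∆.

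Counted per position that occurs once, an alternative chosen after seeing the data, the share of tef103 at T0 was 48.2% and that of eft201 35.7% at T0 and 44.5% at T2W. As shares of reads without division by length, tif452 took 43.4% at T1W, and tif51 59.7, 69.4, 67.0 and 60.5% at T0, T1D, T1W and T2W.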
